A study of Mus musculus with 3 samples.

Results

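The 10 genes described here carry the name of the bone morphogenetic protein (Bmp) family or are genes that Bmp signalling switches on, in mouse intestinal organoids. They were chosen by symbol from the 32285 genes of the count files, and all 10 were found: Bmp1, Bmp2, Bmp3, Bmp4, Bmp7, Id1, Id2, Id3, Smad6 and Smad7. Organoids are epithelial cells grown as small bodies in a gel, and each of 3 genotypes gave 1 single-cell library. WT organoids came from wild-type mice. LApc organoids carried Lgr5-CreERT2 with Apc fl/fl, so that a Cre enzyme made in cells expressing the stem cell gene Lgr5 targets Apc, which restrains the Wnt pathway. LApcL organoids carried these alleles together with Lef1 fl/fl, so that Lef1, a transcription factor of the same pathway, is targeted as well. All 3 groups carried the C57BL/6 label, were started from mice of 7 to 8 weeks, had tamoxifen in 2 doses at 2 mg, and were taken at passage 3 on day 6 of culture. Tamoxifen had been given 29 days earlier in the LApc group and 21 days earlier in both others, so time and genotype cannot be told apart in comparisons with LApc. The methods of the study describe 2 passages without growth factors for LApc and LApcL cells. At passage 3, the passage of the sequenced cultures, they list combinations of supplements, among them noggin, a Bmp antagonist. For WT organoids they give no medium. Whether noggin was in the medium of the sequenced cultures is not given in the sources used here, so medium and genotype cannot be told apart either.

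Bmp ligands are secreted proteins that bind pairs of receptor kinases on the cell surface. The receptors phosphorylate Smad1, Smad5 and Smad9, which join Smad4, enter the nucleus and switch on target genes. Id1, Id2 and Id3 are among the best known targets and encode helix-loop-helix proteins that hold back differentiation factors, while Smad6 and Smad7 encode inhibitory Smads that feed back on the receptors. In the intestine Bmp activity is low at the crypt base, where stem cells lie, and rises towards the villus. Bmp1 carries the family name but is a protease that processes collagen and Bmp antagonists, not a ligand of this kind.

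Each library was a mixture, so levels were taken in barcodes of 2 kinds. A barcode marks 1 droplet, which usually holds 1 cell, and a unique molecular identifier (UMI) marks 1 captured RNA molecule. Deep barcodes were found in 1 library only, held at least 10000 UMIs and had at most 20% of them from mitochondrial genes. There were 1208 of 11411 barcodes in WT, 2161 of 10706 in LApc and 1931 of 12068 in LApcL, with medians of 32584 to 38074 UMIs. Shared barcodes were the 3195 found in all 3 libraries, with medians of 1483 to 2176 UMIs. The epithelial gene Epcam stood at 1192 to 1967 CPM (UMIs of a gene per 1000000 UMIs summed over the barcodes) in deep barcodes and at 2.81 to 14.8 CPM in shared ones. The endothelial gene Pecam1 showed the opposite order, with 1.002 to 1.60 CPM in deep and 1050 to 1076 CPM in shared barcodes. The labelled epithelium was thus found in the deep barcodes, and all 4 epithelial markers of a list were above 5 CPM there in every library.

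Other differences between the deep barcodes went along with genotype. Enterocyte markers, 9 genes of absorptive cells, summed to 21173 CPM for WT but only 11.7 CPM for LApc and 10.9 CPM for LApcL. Of these, 9 were at 5 CPM or more in WT and 1 in each of the others. Genes of high Wnt activity, a list of 7 that includes Lef1, summed to 34.3, 1959 and 845 CPM. Mitochondrial genes took a median of 10.5% of the UMIs of a WT barcode, 5.64% for LApc and 6.39% for LApcL. Paneth cell markers (6 genes) summed to 235, 1379 and 3453 CPM, enteroendocrine markers (7) to 1591, 37.8 and 23.8 CPM, stem cell markers (7) to 410, 1104 and 1549 CPM and proliferation markers (8) to 385, 828 and 1237 CPM. Values without the WT enterocyte-like cluster or within proliferating/TA-like clusters are given beside some results, and those under a mitochondrial limit of 10% entered the alternatives. Beyond these, the part of such differences in the results was not tested. Of the targeted genes, Apc was counted at 19.96, 88.5 and 95.4 CPM and Lef1 at 0.961, 72.0 and 47.8 CPM. Only 3′ ends were read in this assay, and which parts of both genes were to be deleted is not given in the sources used here, so these counts do not check the genotypes of the libraries labelled LApc and LApcL. The paper reports a check of Lef1 deletion in its LApc and LApcL organoids before their single-cell sequencing. With 1 library per genotype no difference has a replicate check, no p-value was computed, and every interval below covers counting error only.

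Most of the set stood higher in deep LApc barcodes than in deep WT barcodes. In LApc 7 of the 10 genes were at least 2-fold higher than in WT, 1 was at least 2-fold lower, and Bmp2 and Smad7 differed by less. Among all 12817 genes with a mean of at least 1 CPM over both libraries, 39.9% passed the same fold, 28.5% higher and 11.4% lower in LApc. Under median-of-ratios scaling, which moved the median of all genes from 0.52 to 0.03, this split was 17.2% higher and 17.8% lower, and the split of the 10 genes stayed at 7 and 1. The median log2 ratio was 2.41 over the 10 genes and 0.52 over all genes. Between LApcL and LApc 3 genes, Bmp2, Bmp4 and Smad7, were at least 2-fold lower in LApcL and none was higher, among 9 that passed the level filter. Here 8.93% of all 12581 genes passed the fold, 2.73% higher and 6.20% lower, and the median log2 ratio was -0.58 over the 9 genes and 0.03 over all. The 2 comparisons share the LApc library. LApcL against WT gave 6 genes higher and 3 lower, where 42.5% of all genes passed the fold, 30.0% higher and 12.5% lower.

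**Figure D1:**
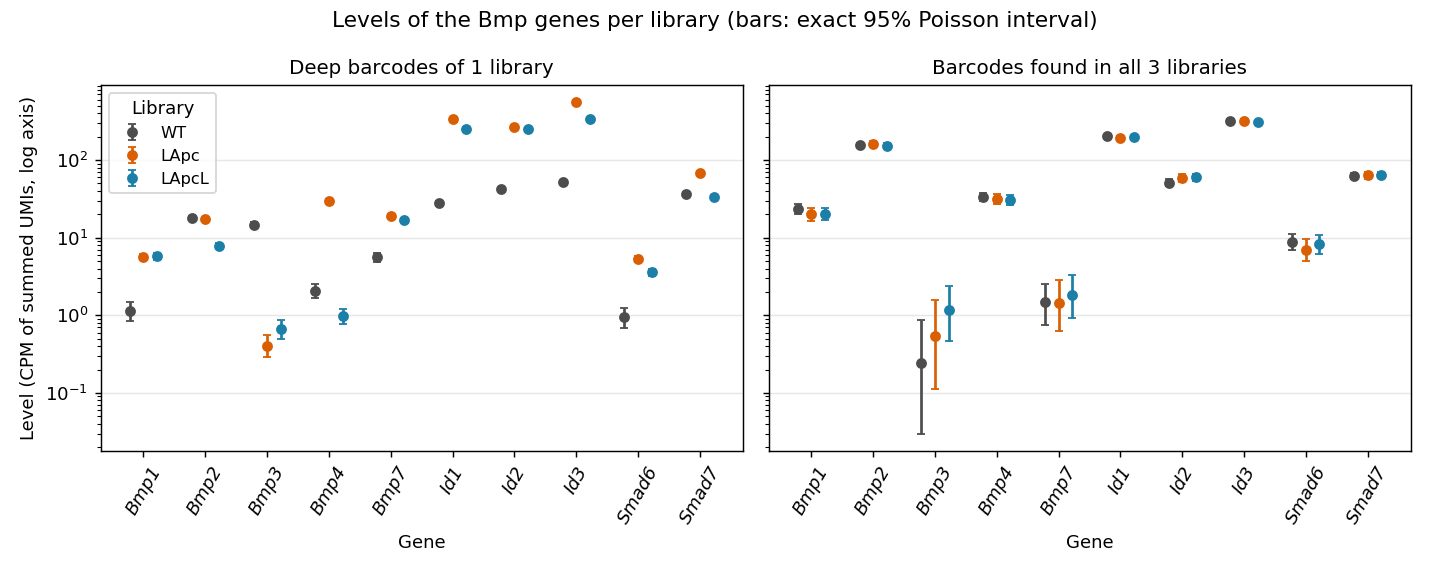
Level of each Bmp gene (CPM of summed UMIs, log axis) in the 3 libraries, in deep barcodes of 1 library (left) and in barcodes found in all 3 libraries (right), where points are levels and bars exact 95% Poisson intervals. In deep barcodes Id1, Id2 and Id3 lay at 28.2 to 51.5 CPM in WT and at 249 to 562 CPM in LApc and LApcL, whereas the 3 values of the shared barcodes lie close together for the genes other than Bmp3, which had 2, 3 and 7 UMIs there.

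**Figure D2:**
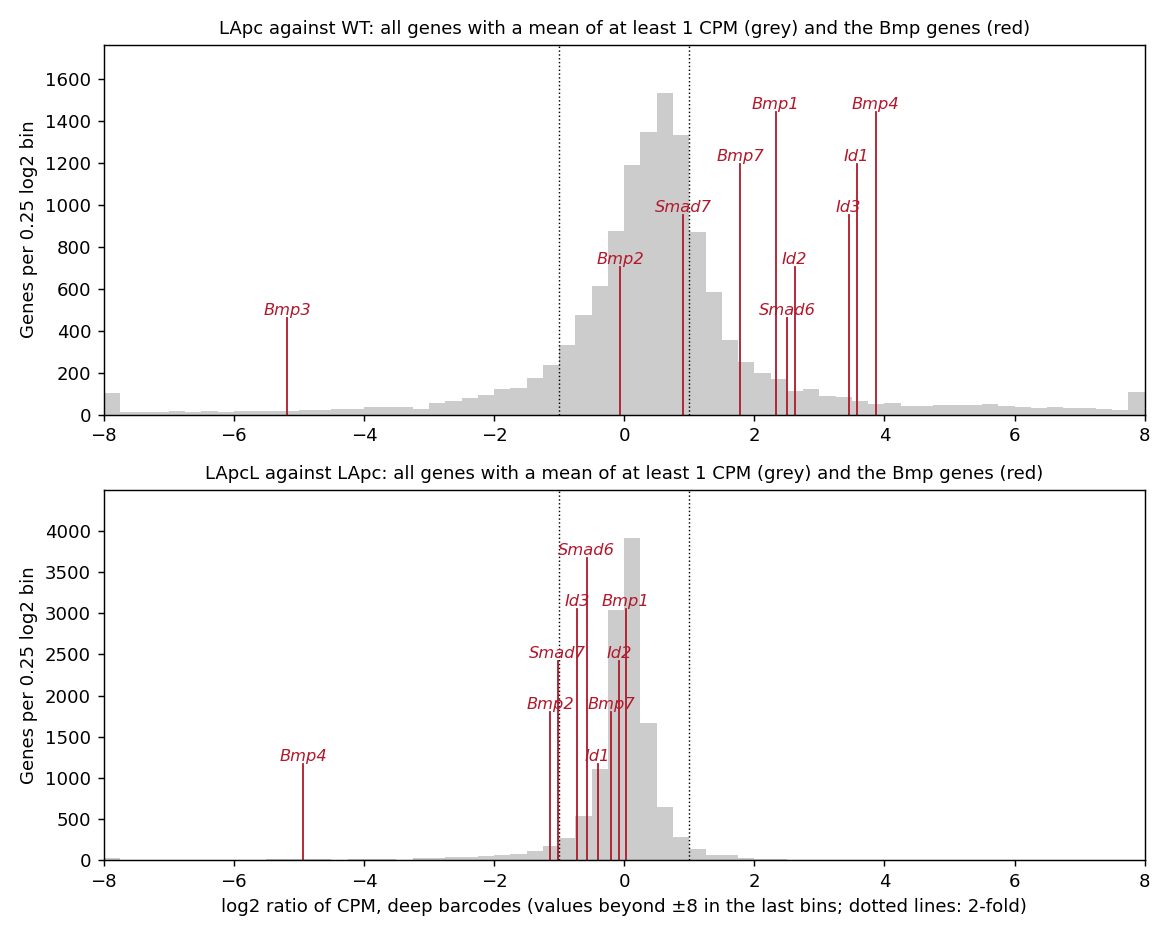
Number of genes per bin of the log2 ratio of CPM between deep barcodes (grey), with the Bmp genes that passed the level filter marked in red at heights that serve only to keep the names apart. LApc against WT is above and LApcL against LApc below, and dotted lines mark 2-fold. In the upper panel 7 Bmp genes lie to the right of the upper line and Bmp3 at -5.18, and in the lower panel Bmp4 lies at -4.94.

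Among the ligands, Bmp4 was high in LApc and low in both other libraries. Bmp4 (ENSMUSG00000021835; GRCm38 chr14:46383520-46390669, reverse strand) is a ligand that the mesenchyme around the crypts is known to make. Its level in deep barcodes was 2.07 CPM for WT (95% interval 1.68 to 2.51), 30.04 CPM for LApc (28.9 to 31.2) and 0.981 CPM for LApcL (0.777 to 1.22). LApc was thus at 14.5 times the WT level and 30.6 times the LApcL level. On the log2 scale the ratio was 3.86 (3.58 to 4.16) for LApc against WT and -4.94 (-5.28 to -4.61) for LApcL against LApc. Within proliferating/TA-like clusters the differences were smaller, with Bmp4 at 0.441 CPM in WT, 4.52 CPM in LApc and 0.573 CPM in LApcL. With each barcode thinned to 10000 UMIs, Bmp4 was found in 1.49% of WT, 15.6% of LApc and 1.14% of LApcL barcodes. Pecam1, which epithelial cells should lack, was found in 1.41%, 1.20% and 0.984% of the same barcodes. The WT and LApcL shares of Bmp4 lie within the intervals of these (0.822% to 2.24% and 0.593% to 1.53%). The WT level of Bmp4 was nevertheless above the 1.002 CPM (0.741 to 1.32) of Pecam1. It also differed between WT clusters, with 3.99 CPM in the enterocyte-like and 0.22 CPM in the goblet-like cluster. The LApcL level of Bmp4 was not above the 1.06 CPM (0.843 to 1.31) of Pecam1 there. The 30.6 times over LApcL thus rests on a level no higher than that of Pecam1. Before thinning the Bmp4 shares were 5.30%, 25.3% and 3.31%.

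Bmp4 was not spread evenly over LApc. In LApc 53.8% of its 2730 UMIs lay in 109 barcodes, the top 5%, with at most 52 UMIs in a barcode. By cluster it stood at 74.4 CPM in the cluster led by Npy, at 77.3 CPM in the cluster led by Prss56 and Chgb and at 39.8 CPM in the Wnt-high-like cluster. In the 5 other LApc clusters it was at 5.34 CPM or less. No LApcL cluster reached more than 1.98 CPM and no WT cluster more than 3.99 CPM. Bmp4 was thus high in 3 LApc clusters, which held 485, 245 and 382 barcodes. Npy, a neuropeptide gene, was counted at 396 CPM in LApc and at 0 and 0.0248 CPM in WT and LApcL. Without the LApc barcodes that held an Npy UMI, Bmp4 was still at 24.1 CPM. Fibroblast markers, genes of the mesenchyme, were near 0 in all deep barcodes, with 6 genes summing to 0.297 CPM in LApc and 1.76 and 0.435 CPM in WT and LApcL, and with Dcn and Col3a1 at 0 in WT and Lum at 0 in both others. The 6 blood endothelium markers summed to 33.5 CPM in LApc and to 5.44 and 16.8 CPM in WT and LApcL, and their part in the Bmp4 difference was not tested. An antisense gene within the Bmp4 locus, Gm15222, moved the same way, with 0.429, 5.07 and 0.447 CPM. Another gene, Gm15217, overlaps an exon of Bmp4 on the other strand and had no UMI in these barcodes.

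Bmp3, unlike the other ligands, was high in WT alone. Bmp3 (ENSMUSG00000029335; chr5:98854415-98884396, forward strand) is an atypical ligand that is known to oppose other Bmps. It stood at 14.8 CPM for WT (95% interval 13.7 to 15.9), 0.407 CPM for LApc (0.287 to 0.561) and 0.658 CPM for LApcL (0.493 to 0.861). WT was 36.3 times LApc, a log2 ratio of -5.18 (-5.70 to -4.70) for LApc against WT. LApc and LApcL were too low for the level filter in the second comparison. At 10000 UMIs Bmp3 was found in 13.0% of WT, 0.324% of LApc and 0.673% of LApcL barcodes, the last 2 below the share of Pecam1. Within WT it was highest in the goblet-like cluster, at 28.6 CPM, a cluster that also had Paneth and stem cell markers among its leading genes. It was at 4.33 CPM in the enterocyte-like cluster, and had 0 UMIs in the 37 barcodes of the enteroendocrine-like cluster. Without the enterocyte-like cluster the WT level was 17.1 CPM and the log2 ratio -5.39. The unnamed WT cluster led by Sult6b2, with 173 barcodes, still had the enterocyte marker Fabp1 among its leading genes. Goblet cell markers (7 genes) summed to 1458 CPM in deep barcodes of WT, 327 CPM in LApc and 661 CPM in LApcL. Their part in the Bmp3 difference was not tested.

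In deep barcodes Bmp2 was similar in WT and LApc and lower in LApcL. Bmp2 (ENSMUSG00000027358; chr2:133552159-133562885, forward strand) is a ligand known from mature villus epithelium. Its level was 17.9 CPM for WT (95% interval 16.7 to 19.1), 17.2 CPM for LApc (16.3 to 18.0) and 7.80 CPM for LApcL (7.203 to 8.44). The WT and LApc intervals overlap, with a log2 ratio of -0.06 (-0.18 to 0.06). The shallower barcodes compared here and below were a part of those of 1 library with under 10000 UMIs. They were 1784 of 6465 in WT and 1423 of 5005 in LApc. In them Bmp2 was at 24.3 CPM in WT and 13.9 CPM in LApc, a log2 ratio of -0.81. LApcL was 2.20 times lower than LApc, a log2 ratio of -1.14 (-1.27 to -1.003). The shares at 10000 UMIs were 11.3%, 11.2% and 6.01%. In WT the enterocyte-like cluster held the highest level, 28.5 CPM, against 7.71 CPM in the proliferating/TA-like cluster, which is led by cell cycle genes. In LApc the cluster led by Npy had 41.9 CPM and the Wnt-high-like cluster 34.3 CPM, while the 6 others had 4.05 to 10.8 CPM. Within proliferating/TA-like clusters the levels of Bmp2 were 7.71, 5.70 and 5.16 CPM, and LApcL against LApc gave -0.14 (log2), under the 2-fold line. The like totals of WT and LApc were thus made up in different clusters. Among LApc barcodes 32.6% of those with Bmp2 also held Bmp4, against 13.5% of those without, in 2161 barcodes thinned to equal depth.

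Bmp7 and Bmp1 were both higher in LApc and LApcL than in WT. Bmp7 (ENSMUSG00000008999; chr2:172868012-172940321, reverse strand) is a ligand that pairs readily with Bmp2 and Bmp4. Bmp7 was at 5.56 CPM for WT (95% interval 4.92 to 6.26), 19.1 CPM for LApc (18.2 to 20.0) and 16.6 CPM for LApcL (15.8 to 17.6). It was 3.43 times higher in LApc than in WT, and LApcL against LApc gave a log2 ratio of -0.20 (-0.30 to -0.10). Its shares at 10000 UMIs were 4.47%, 18.3% and 16.7%. The Paneth-like clusters carried the highest levels of both Apc-targeted libraries, 67.7 CPM for LApc and 53.1 CPM for LApcL, and they held 34 and 85 barcodes. With coarser clustering (Leiden resolution 0.2) the LApc cluster of that name held 1092 barcodes and had 35.3 CPM, and that of LApcL had 55.0 CPM. In proliferating/TA-like clusters alone the levels were 7.27, 9.32 and 16.9 CPM, and the log2 ratio of LApc against WT was 0.36, below the 2-fold line.

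Bmp1 (ENSMUSG00000022098; chr14:70474558-70520234, reverse strand) was rare in all deep barcodes. It was counted at 1.12 CPM for WT (95% interval 0.847 to 1.46), 5.65 CPM for LApc (5.17 to 6.16) and 5.73 CPM for LApcL (5.22 to 6.27). LApc was 5.02 times WT, but under 10000 UMIs the log2 ratio was 0.81, below the 2-fold line. The intervals of LApc and LApcL overlap. Within proliferating/TA-like clusters, however, Bmp1 was at 2.67 CPM in LApc and 5.64 CPM in LApcL, a log2 ratio of 1.08. At 10000 UMIs its shares were 1.08%, 6.62% and 5.49%, the first within the interval of the Pecam1 share. Of 55 WT UMIs, 15 lay in the 37 enteroendocrine-like barcodes, which gave 15.9 CPM in that cluster.

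The Id genes were low in WT and high in both Apc-targeted libraries. Id1 (ENSMUSG00000042745; chr2:152736251-152737410, forward strand) was at 28.2 CPM for WT (95% interval 26.7 to 29.7), 335 CPM for LApc (331 to 339) and 253 CPM for LApcL (249 to 256). Id2 (ENSMUSG00000020644; chr12:25093799-25097140, reverse strand) was at 42.7 CPM (40.9 to 44.6), 263 CPM (259 to 266) and 249 CPM (246 to 252). Id3 (ENSMUSG00000007872; chr4:136143497-136145755, forward strand) was at 51.5 CPM (49.5 to 53.5), 562 CPM (557 to 567) and 340 CPM (336 to 344). For all 3 genes WT was lowest and LApc highest, with no overlap of the intervals. The log2 ratios of LApc against WT were 3.57 (3.49 to 3.65) for Id1, 2.62 (2.56 to 2.69) for Id2 and 3.45 (3.39 to 3.51) for Id3. In the 1784 WT and 1423 LApc shallower barcodes of 1 library, under 10000 UMIs, the ratios were smaller, 1.67, 1.92 and 2.58. There Id1 was at 60.9 CPM in WT and 194 CPM in LApc. LApcL was below LApc by less than 2-fold, with log2 ratios of -0.41, -0.08 and -0.72.

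Id genes were also found in many more barcodes. At 10000 UMIs Id1 was in 18.6% of WT, 71.2% of LApc and 68.6% of LApcL barcodes. Id2 was in 28.7%, 73.3% and 70.4%, and Id3 in 32.5%, 77.3% and 71.9%. Most LApc and LApcL barcodes thus held these genes at this depth, and most WT barcodes did not. Before thinning Id1 was in 39.0% of WT, 85.9% of LApc and 85.0% of LApcL barcodes. At that full depth the median barcode of WT had no Id1 UMI, against 194 CPM in LApc and 155 CPM in LApcL.

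**Figure D3:**
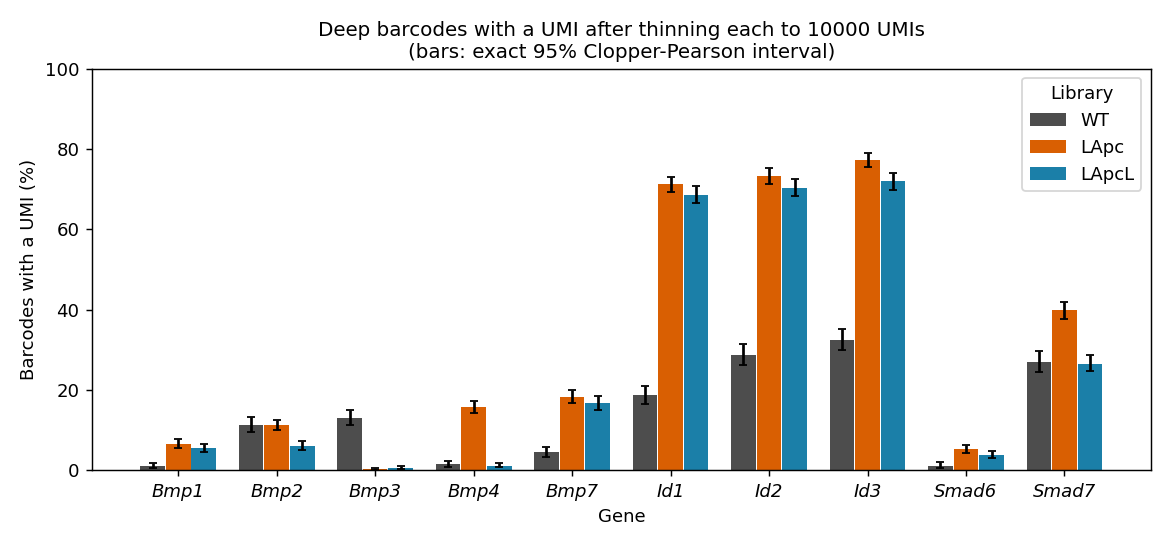
Percent of deep barcodes with at least 1 UMI of each gene after every barcode was thinned to 10000 UMIs, with bars for the 3 libraries and exact 95% Clopper-Pearson intervals. Id1, Id2 and Id3 were found in 18.6% to 32.5% of WT barcodes and 68.6% to 77.3% of the others, Bmp4 in 15.6% of LApc barcodes against 1.49% and 1.14% in the others, and Bmp3 in 13.0% of WT barcodes.

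The Id genes were also higher within clusters of the same name. In proliferating/TA-like clusters Id1 was at 51.2 CPM in WT, 340 and 330 CPM in both LApc clusters of that name, and 240 CPM in LApcL. Id2 was at 54.0 CPM in WT, 308 and 326 CPM in LApc and 300 CPM in LApcL. Id3 was at 53.1 CPM in WT, 413 and 350 CPM in LApc and 274 CPM in LApcL. Without the WT enterocyte-like cluster the log2 ratios of LApc against WT were 3.35 for Id1, 2.51 for Id2 and 3.34 for Id3. This left in the WT cluster led by Sult6b2, 173 barcodes with Fabp1 among the leading genes and Id1 at 6.88 CPM. Within WT the clusters differed for Id1, which was at 60.9 CPM in the goblet-like and 6.38 CPM in the enterocyte-like cluster. The highest WT cluster was below the lowest LApc or LApcL cluster for each Id gene. For Id1 these were 60.9 and 109 CPM, for Id2 60.5 and 97.8 CPM, and for Id3 67.6 and 148 CPM, and the lowest was each time the Paneth-like cluster of LApcL.

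**Figure D4:**
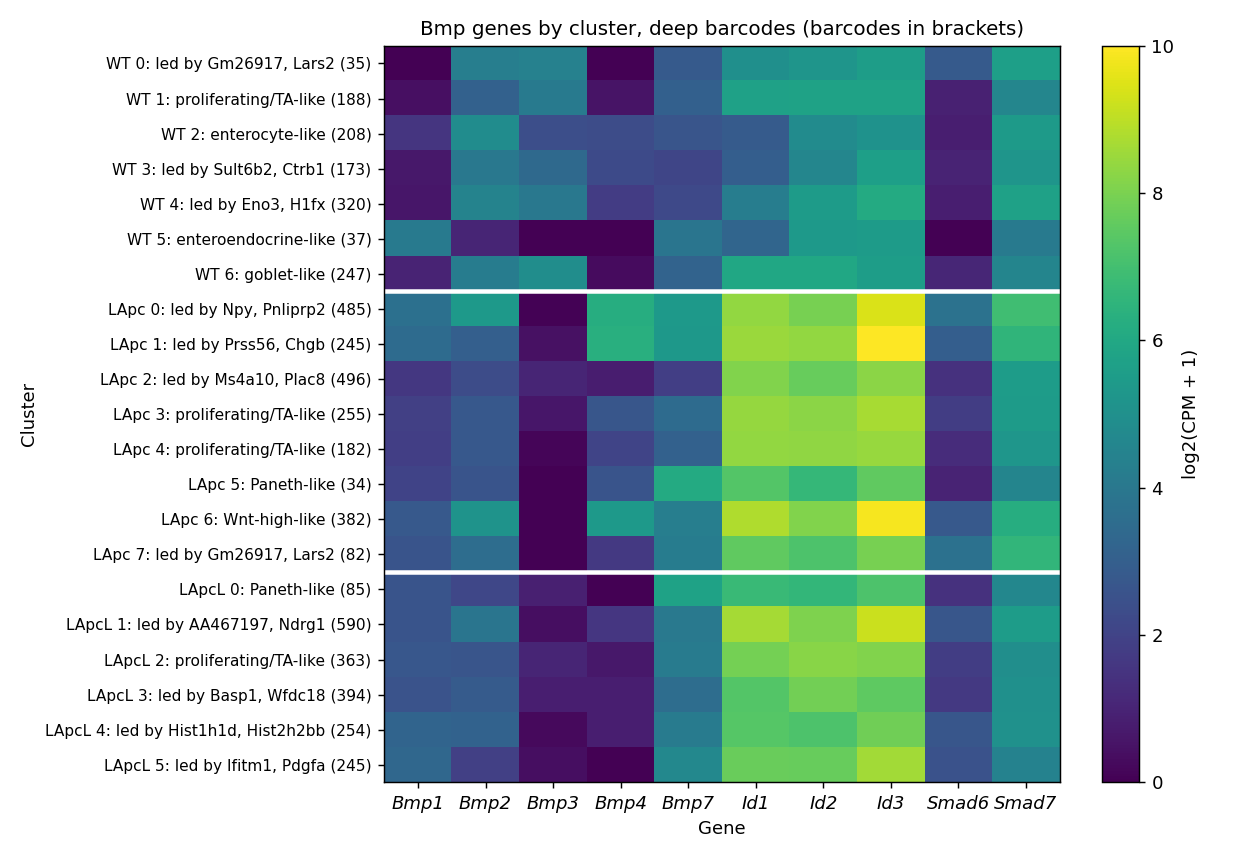
Level of each Bmp gene in each cluster of deep barcodes as log2(CPM + 1), with 1 row per cluster, white lines between the libraries and the number of barcodes in brackets; clusters were made for each library alone and without these genes. The Id columns are brighter in every LApc and LApcL cluster than in any WT cluster, while Bmp4 is bright in 3 LApc clusters with 39.8 to 77.3 CPM.

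Id1 and Id3 went together in single barcodes of the Apc-targeted libraries. In LApc, Id3 was found in 86.4% of barcodes with Id1 and 54.8% of those without. In LApcL the shares were 81.8% and 50.3%, and in WT 36.4% and 31.6%. The correlation of their log levels over barcodes thinned to equal depth was 0.60 in LApc (2161 barcodes), 0.53 in LApcL (1931) and 0.07 in WT (1208). The points of each library share its depth and cell mixture, and the lower level in WT leaves more barcodes without a UMI. Ligand and target were compared in the same way for Bmp4 in LApc. Id3 was found in 89.9% of the 338 barcodes with Bmp4 and in 74.9% of the others, and Smad7 in 53.6% and 37.2%. Smad6 was found in 9.47% and 4.39%, Id1 in 74.3% and 70.7% and Id2 in 74.6% and 73.1%. Npy was found in 24.9% and 11.2%. This was not particular to Bmp4, since LApc barcodes with and without Bmp2 held Id3 in 86.0% and 76.2% and Smad7 in 50.8% and 38.4%. Other pairs went the other way, as Id2 with Bmp2 (71.1% and 73.6%) and Id1 with Bmp7 (68.4% and 71.9%). In LApcL only 22 barcodes held Bmp4, and Id1 was in 45.5% of them against 68.9% of the others. The 3 LApc clusters highest in Bmp4 were also highest in Id3, at 682, 1056 and 928 CPM against 187 to 413 CPM in the others, and co-occurrence within a cluster was not tested.

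Promoters of 4 members are printed here from RefSeq (GRCm38.p6), those of Bmp4, Id2, Id3 and Smad6, and each of the 4 genes had its highest level in LApc. Promoters of the other members are left out, whether or not RefSeq holds them, so nothing is said of their motifs. The 4 promoters are shown from 250 bases before to 10 bases after the RefSeq start, with matches to 3 short motifs in capitals. The motifs were GGCGCC and GTCTAGAC, which Smad proteins are known to bind, and CTTTGAT or its other strand ATCAAAG, the core of sites for Tcf and Lef factors. Id2 (chr12:25096083-25096342, reverse strand) held GGCGCC, which 9.96% of 32851 promoter windows of this length held. Smad6 (chr9:64022050-64022309, reverse strand) held GTCTAGAC across the start, as did 0.177% of windows. Id3 (chr4:136143572-136143831, forward strand) and Bmp4 (chr14:46390660-46390919, reverse strand) held none of the 3, and CTTTGAT was in 3.35% of windows. The RefSeq starts of Id2 and Id3 lie downstream of the first base of the GENCODE genes given above, so these 2 windows lie within the gene bounds. A match is a description of the letters and not of binding.
Id2: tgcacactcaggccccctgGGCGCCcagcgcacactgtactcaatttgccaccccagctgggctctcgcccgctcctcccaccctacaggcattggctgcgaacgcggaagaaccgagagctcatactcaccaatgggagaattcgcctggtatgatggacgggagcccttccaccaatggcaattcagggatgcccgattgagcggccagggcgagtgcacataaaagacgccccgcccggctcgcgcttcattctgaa
Id3: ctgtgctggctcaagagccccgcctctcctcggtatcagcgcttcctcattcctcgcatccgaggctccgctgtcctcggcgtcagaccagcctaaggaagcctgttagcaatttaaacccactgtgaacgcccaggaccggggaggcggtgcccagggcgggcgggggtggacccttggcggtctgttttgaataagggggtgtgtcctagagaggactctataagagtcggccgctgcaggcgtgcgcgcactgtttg
Smad6: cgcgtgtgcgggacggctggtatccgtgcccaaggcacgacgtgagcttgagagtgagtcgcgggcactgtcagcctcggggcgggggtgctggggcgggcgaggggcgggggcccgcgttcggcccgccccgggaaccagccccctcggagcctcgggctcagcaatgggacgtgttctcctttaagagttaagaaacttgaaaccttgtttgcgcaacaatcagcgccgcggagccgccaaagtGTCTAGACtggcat
Bmp4: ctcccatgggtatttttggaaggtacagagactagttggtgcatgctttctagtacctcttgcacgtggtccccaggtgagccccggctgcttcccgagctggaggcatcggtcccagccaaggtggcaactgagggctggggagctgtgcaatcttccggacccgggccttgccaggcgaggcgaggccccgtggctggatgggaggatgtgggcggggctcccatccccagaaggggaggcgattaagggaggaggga

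The inhibitory Smads differed in size and order. Smad6 (ENSMUSG00000036867; chr9:63953076-64022059, reverse strand), whose promoter is printed above, was at 0.941 CPM for WT (95% interval 0.689 to 1.25), 5.33 CPM for LApc (4.86 to 5.82) and 3.57 CPM for LApcL (3.16 to 4.002). LApc was 5.66 times WT, and LApcL against LApc gave a log2 ratio of -0.58 (-0.80 to -0.37). Within proliferating/TA-like clusters Smad6 was at 0.881, 2.12 and 2.51 CPM, so the log2 ratio was 1.27 for LApc against WT and turned to 0.24 for LApcL against LApc. In barcodes under 10000 UMIs LApc against WT gave 1.70. The shares at 10000 UMIs were 1.16%, 5.18% and 3.88%, the first within the interval of the Pecam1 share. In LApc the cluster led by Npy had 12.5 CPM and the small cluster led by Gm26917 and Lars2, 82 barcodes of lower depth, had 12.2 CPM.

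Smad7 (ENSMUSG00000025880; chr18:75367529-75395935, forward strand) is a target of Bmp and of other ligands of the wider family. It was at 36.6 CPM for WT (95% interval 35.0 to 38.4), 68.7 CPM for LApc (67.0 to 70.4) and 33.9 CPM for LApcL (32.6 to 35.2). LApc was highest, and the WT and LApcL intervals overlap. The log2 ratio was 0.91 (0.83 to 0.98) for LApc against WT, under the 2-fold line. That ratio passed the line in 2 of 15 alternatives, with 1.18 under the mitochondrial limit of 10%. For LApcL against LApc the ratio was -1.02 (-1.09 to -0.95), just past the line. The shares were 27.1%, 39.8% and 26.6%. In LApc the cluster led by Npy was highest with 120 CPM. Leaving out barcodes with an Npy UMI gave an LApc level of 60.8 CPM and a ratio of -0.84 (log2) for LApcL against LApc. In proliferating/TA-like clusters it was -0.47, and Smad7 was past 2-fold under 8 of 16 other choices of barcodes, scaling or filter, so this call is not stable.

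The rest of the pathway was read from 50 genes in 8 lists. Of these 24 passed the level filter for LApc against WT, with 12 at least 2-fold higher and 1 lower, where 28.5% of all genes were higher and 11.4% lower. For LApcL against LApc 27 passed, with 3 higher and 7 lower, where 2.73% of all genes were higher and 6.20% lower. Of 8 receptors and coreceptors of one list 5 passed the filter in both comparisons, and of 4 signal-transducing Smads 3 did, while Bmpr1b, Eng, Acvrl1 and Smad9 stayed below 1 CPM in the deep barcodes of each library. Bmpr1a, the main type I receptor of the epithelium, was at 61.8, 65.4 and 62.2 CPM in WT, LApc and LApcL. Bmpr2, its type II partner, was at 21.8, 49.4 and 42.7 CPM, and the activin receptors Acvr2a and Acvr2b were at 17.8, 22.3 and 24.3 CPM and at 5.03, 13.3 and 12.5 CPM. Smad1 was at 53.3, 44.5 and 49.96 CPM, Smad5 at 11.7, 24.6 and 27.9 CPM and Smad4 at 69.8, 93.2 and 110 CPM. Bmpr2, Acvr2b and Smad5 were thus past 2-fold in LApc against WT, and no receptor or transducer was in LApcL against LApc.

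Antagonists, other targets and convertases differed as well. Bambi, a decoy receptor that dampens Bmp signals, was at 2.78 CPM in WT, 39.8 CPM in LApc and 6.29 CPM in LApcL. Bambi and Bmp4 thus both had their highest level in LApc, while their order in WT and LApcL differed. Nbl1, a secreted antagonist, was at 0.716, 27.2 and 12.9 CPM, and Dand5 of the same family at 2.495, 5.34 and 4.82 CPM. Smurf1, a ubiquitin ligase that removes Smads, was at 3.99, 13.1 and 15.3 CPM. Fst, which encodes the antagonist follistatin, was at 1.47, 2.30 and 7.28 CPM, and was the one gene named by the rule that was at least 2-fold higher in LApcL than in LApc. The noggin gene, Nog, had 0.534 CPM in LApcL, 1.55 CPM in LApc and 0 UMIs in WT, where the exact upper limit was 0.0754 CPM. Of other targets, Msx1 was at 0.368, 42.5 and 78.1 CPM and Id4 at 1.04, 6.83 and 1.34 CPM. Bmp8b, another ligand, was at 0.245, 11.05 and 10.96 CPM. Of the proprotein convertases that cut ligand precursors, Pcsk5 was lower and Pcsk6 higher in LApc than in WT, and both were lower in LApcL than in LApc, with Pcsk5 at 68.6, 2.47 and 0.708 CPM and Pcsk6 at 3.05, 11.6 and 4.94 CPM.

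Genes with the most similar pattern over the 21 deep clusters were named for the members with at least 20 CPM, by Pearson correlation of log2(CPM + 1). Id3 was closest to Fzd10os (0.97), Lef1 (0.95) and Hacd4 (0.95). Id1 was closest to Ifitm3 (0.97), Cyba (0.96) and Cmtm7 (0.96), and Id2 to Bcl2l12 (0.96), Rbms1 (0.96) and Hmga2 (0.96). Bmp4 was closest to Gm13203 (0.96), Zap70 (0.93) and Fgf3 (0.93). Smad7 had no close match, with Minpp1 first at 0.80, then Lratd1 and Pim1 at 0.79. The 21 clusters come from 3 libraries and share their depth and genotype within each.

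The shared barcodes gave another picture, in cells of endothelial type. Every library held the same 3195 barcodes, and these may be the same cells, so their 3 values are given side by side and are neither replicates nor a comparison of genotypes. A barcode with Bmp2 in WT also held Bmp2 in LApc in 65.4% of cases, against 2.1% of barcodes without it in WT. For Bmp4 these shares were 47.3% and 1.8%, and for Id1 54.4% and 7.7%. The levels in WT, LApc and LApcL were 156, 163 and 153 CPM for Bmp2, 33.7, 31.7 and 30.4 CPM for Bmp4 and 23.7, 20.0 and 20.3 CPM for Bmp1. Bmp7 stood at 1.47, 1.44 and 1.83 CPM, and Bmp3 had 2, 3 and 7 UMIs in all. The intervals of the 3 values overlap for each of these genes. Id1 was at 202, 193 and 196 CPM, Id2 at 51.1, 58.8 and 60.3 CPM and Id3 at 322, 318 and 307 CPM. Smad6 was at 8.92, 7.02 and 8.31 CPM and Smad7 at 61.7, 63.9 and 64.3 CPM.

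Set against deep barcodes of the same library, shared barcodes held more Bmp2 and Bmp1 and less Bmp7. Of 10 genes that passed the level filter in WT, 6 were at least 2-fold higher in shared barcodes (35.2% of all genes tested were). Of 9 in LApc 2 were (25.4%), and of 9 in LApcL 4 were (27.1%). In each library 2 were at least 2-fold lower, where 21.5%, 26.9% and 27.0% of all genes were. Bmp4 was higher in WT and LApcL but at 1.05 times the deep level in LApc. Bmp1 and Bmp2 were higher in all 3, with Bmp2 at 8.70, 9.51 and 19.7 times the deep level. Bmp7 was lower in all 3, by 3.79, 13.3 and 9.11 times. The Id genes changed place with genotype, since Id1 in shared barcodes was 7.16 times the deep level in WT but 0.577 times in LApc and 0.774 times in LApcL. With all barcodes thinned to 1000 UMIs Id1 was found in 2.48%, 23.4% and 19.7% of deep and in 15.6%, 12.9% and 13.0% of shared barcodes, from which 360, 924 and 797 shallower ones were left out. Epcam was found in 0.106%, 0.969% and 1.08% of the same shared barcodes.

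Within the shared barcodes the clusters richest in Bmp2 were low in Id1. Bmp2 was at 1191 CPM in the 181 barcodes led by Coch and Madcam1 and at 415 CPM in the lymphatic endothelium-like cluster, and at 63.0 CPM or less in the 7 others. Bmp4 was at 135 CPM in the cluster led by Vwf and Selp and at 116 CPM in the cluster led by Ackr4. Id1 was at 12.9 and 6.63 CPM in both clusters richest in Bmp2, and at 533 CPM in the 1035 barcodes led by Rbp7 and at 713 CPM in the 75 led by Mgp. Smad6 and Smad7 were highest in the latter as well, with 53.1 and 245 CPM. Id3 was at 669 and 700 CPM in those clusters, and at 976 CPM in 23 barcodes led by Col3a1 and Rgs5, genes of fibroblasts and pericytes. These values sum the UMIs of the 3 libraries for each barcode.

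**Figure D5:**
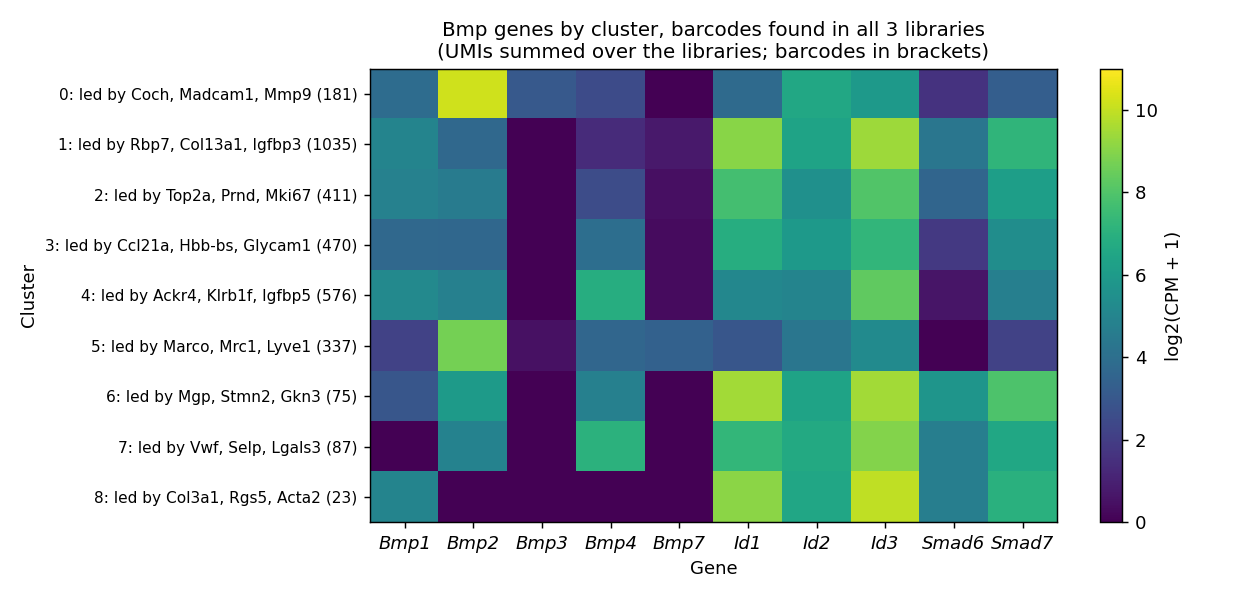
Level of each Bmp gene as log2(CPM + 1) in the 9 clusters of barcodes found in all 3 libraries, with UMIs summed over the libraries, 1 row per cluster named by leading genes and the number of barcodes in brackets. Bmp2 is brightest in the row led by Coch with 1191 CPM, where Id1 is at 12.9 CPM, and Id1 is brightest in the row led by Mgp with 713 CPM.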

How the data were processed

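Intestinal organoids of 3 genotypes were profiled by droplet-based single-cell 3′ RNA sequencing, with 1 library each. The authors deposited whole-number UMI counts per gene and barcode, without normalisation. The file headers name Cell Ranger 6.0.1 and the submitters' notes Cell Ranger 2.1.1, with build mm10. Only barcodes with 500 or more UMIs were present.

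UMIs were summed per library and kind of barcode and scaled to CPM. Exact 95% intervals were taken from the Poisson distribution (levels), the conditional binomial (ratios) and Clopper-Pearson limits (shares). Genes with a mean of at least 1 CPM over both libraries entered a comparison, and a call was a 2-fold difference. The steps were tested on simulated data. Clusters were made with scanpy 1.11.5 (2000 variable genes without the genes reported here, 20 principal components, 20 neighbours, Leiden resolution 0.5), and named "-like" only with at least 3 listed markers among the top 50 genes and 1 among the top 10. Doublets were left in. Removing the highest Scrublet scores at 0.8% per 1000 barcodes was an alternative, since the automatic threshold marked 9, 3 and 7 deep barcodes. Pathway genes were named at 5 CPM or more in 1 of the 2 libraries of a comparison in which they differed 2-fold (the 12 largest), or as receptors and transducers at 20 CPM or more. Nog was added after its values were seen. Positions are from GENCODE vM21 (GRCm38). The members and lists were chosen with earlier results of these data known.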

Additional observations from a re-analysis of the deposited data

How the results depend on the processing

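No paired analysis was possible because each genotype had 1 library, and for the same reason no replicate could be left out. The 10 genes were compared again under other depth and mitochondrial limits, with doublets removed, with barcodes of 2 libraries included, within proliferating/TA-like clusters, in shallower barcodes, without single clusters or Npy barcodes, and with other scalings, filters and pseudocounts. Those on proliferating/TA-like clusters, shallower barcodes, clusters led by Gm26917 and Lars2, and barcodes with 10 or more Npy UMIs were chosen after seeing the data. For LApc against WT 7 to 9 genes were past 2-fold under all but 1 of them. With a pseudocount of 10 CPM 5 were, which by construction shrinks the ratios of low genes. For LApcL against LApc 2 or 3 genes were past 2-fold, and 1, Bmp4, with that pseudocount. Within proliferating/TA-like clusters these were Bmp4 (lower) and Bmp1 (higher, log2 ratio 1.08), while Bmp3, with a ratio of 1.58, was under the level filter. No called ratio changed sign. The Bmp4 ratio (log2) ranged from 1.73 to 4.42 for LApc against WT and from -5.09 to -1.87 for LApcL against LApc. Bmp2 in LApcL against LApc ranged from -1.41 to -0.14, the last in proliferating/TA-like clusters. In barcodes under 10000 UMIs the LApc against WT ratio of Id1 was 1.67, against 3.57 in deep barcodes, and that of Bmp1 was 0.81, under 2-fold. Smad7 in LApcL against LApc was past 2-fold in 8 of 16 alternatives. With Leiden resolution 0.2 the highest cluster level of a gene in a library moved beyond its counting interval in 19 cases and stayed within it in 11 for deep barcodes, and in 6 and 24 for shared ones. Precision is limited by the 1 library per genotype and by low counts of Bmp1, Smad6 and, outside WT, Bmp3.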
